A study of Danio rerio with 6 samples.

Results

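The cell cycle and DNA replication genes of whole zebrafish embryos were compared between Tan I and its solvent. Genes were taken by name from the table of expressed genes: mcm2 to mcm10, orc1 to orc6, gins1 to gins4, rfc1 to rfc5, rpa1 to rpa3, prim1, prim2, pcna, names that begin with pola, pold or pole, rrm1 and rrm2, the A, B, D and E cyclins, cdk1, cdk2, cdk4, cdk6, names that begin with cdc6, cdc7, cdc20, cdc25 or cdc45, and the aurk, plk1, bub and cenp genes. Of 21317 rows, 89 carried such a name, and 88 of these had a mean normalized read count of at least 10 over the 6 libraries, against 20836 rows in all. The row that was left out was mcm3l, with a mean of 9.998, and the weakest genes that were kept were cdc25d at 38.1 and cenpw at 40.2. The 88 rows held 87 symbols, because rrm2 stood on 2 rows. By function, as judged from the symbol, 46 belonged to DNA replication, 8 to the G1/S transition and 29 to mitosis. The mitotic set took every cenp name, among them cenpj (reference name cpap), and also ccna2, the cyclin of S and G2 phase. Another 5 (poldip2, poldip3, cdc73, aurkaip1 and mcm3ap) matched by name although their products are known for other roles.

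The study sequenced RNA from Tg(c-mybhyper:GFP) embryos to find the transcripts that differ under Tan I, a diterpene of Salvia miltiorrhiza (danshen). All embryos of both groups carried this transgene, which raises c-myb activity and serves as a fish model of excess myeloid cells. They were exposed from 30 to 72 hpf (hours post-fertilization) to DMSO or to 60 μM Tan I, with 3 libraries per group. Embryos without the transgene were not analysed here, so the values describe Tan I on this background alone. The labels call the tissue embryonic cells, but RNA came from embryos, and markers of skeletal muscle, epidermis, neurons and blood were all measured. In such bulk RNA, fewer cells of a type and less RNA per cell cannot be told apart. Neither the number of embryos in a library nor the origin of the libraries in separate clutches was stated, so p-values measure only the spread between these libraries. The reads recovered per library ranged from 15874701 to 16959503 in DMSO and from 20451593 to 24932190 in Tan I, so every Tan I library was deeper.

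A cell copies its DNA in S phase and divides in M phase. During G1 the origin recognition complex (ORC) and Cdc6 load the ring of Mcm2 to Mcm7 onto DNA, a step called licensing. Cyclin-dependent kinases and Cdc7 then convert this ring, with Cdc45 and the GINS complex, into the active helicase, and polymerases follow with the sliding clamp PCNA. D-type cyclins with Cdk4 and Cdk6, and then cyclin E with Cdk2, drive entry into S phase through E2F factors, which switch on many of the licensing and fork genes. Cyclin B with Cdk1 starts mitosis, in which centromere proteins join chromosomes to the spindle and the Bub proteins delay division until all are attached. In a vertebrate embryo past the first day, dividing cells persist in the brain, the retinal margin, the gut and the blood-forming tissue while many other tissues differentiate.

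None of the 88 genes passed the test. Tan I was compared with DMSO by limma on log2(normalized read count + 1), and a gene was called at a Benjamini-Hochberg adjusted p under 0.05 over all 20836 tested genes. That rule called 536 genes in the whole table, 431 higher and 105 lower in Tan I, which was 2.57% of those tested. The lowest adjusted p among the 88 was 0.0767, for mcm2. Counting tests on the recovered reads, edgeR's quasi-likelihood test and DESeq2, also called 0 of the 88. At an unadjusted limma p under 0.05, 9 of the 88 were lower in Tan I (10.2%) and 0 were higher, beside 6.50% and 8.77% of all tested genes in those directions. These 9 were mcm2, mcm3, mcm5, mcm6, mcm7, prim1, cdk4, cdk6 and poldip3.

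The estimates lay below 0 for 60 of the 88 (68.2%), against 51.5% of all tested genes. The median log2 fold change was -0.066 for the 88 and -0.0067 for all tested genes. By function it was -0.10 for the 46 replication genes, -0.074 for the 8 G1/S genes and -0.030 for the 29 mitotic genes. These small medians moved with single libraries. Without Tan I replicate 2 the median was -0.040 for the 88, -0.064 for the replication genes and 0.0045 for the mitotic genes. For the G1/S genes it was -0.014 without DMSO replicate 3, -0.11 without DMSO replicate 1 and -0.12 without DMSO replicate 2. The mitotic median was also -0.058 without DMSO replicate 1, -0.014 without DMSO replicate 2 and -0.046 without Tan I replicate 1. In 14 of the 88 (15.9%) every Tan I library lay below every DMSO library, beside 10.4% of all tested genes. In 2 (orc1 and orc6) every Tan I library lay above, beside 10.7% of all tested genes. Of the 14, 10 were replication genes, 3 were G1/S genes, 1 was poldip3, and 0 were mitotic. The 95% interval of the log2 fold change lay within ±1 for all 88 and within ±0.5 for 75 of them. Single estimates ran from -0.33 for cdc25d to 0.30 for cenpo, 2 of the weaker genes.

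**Figure D1:**
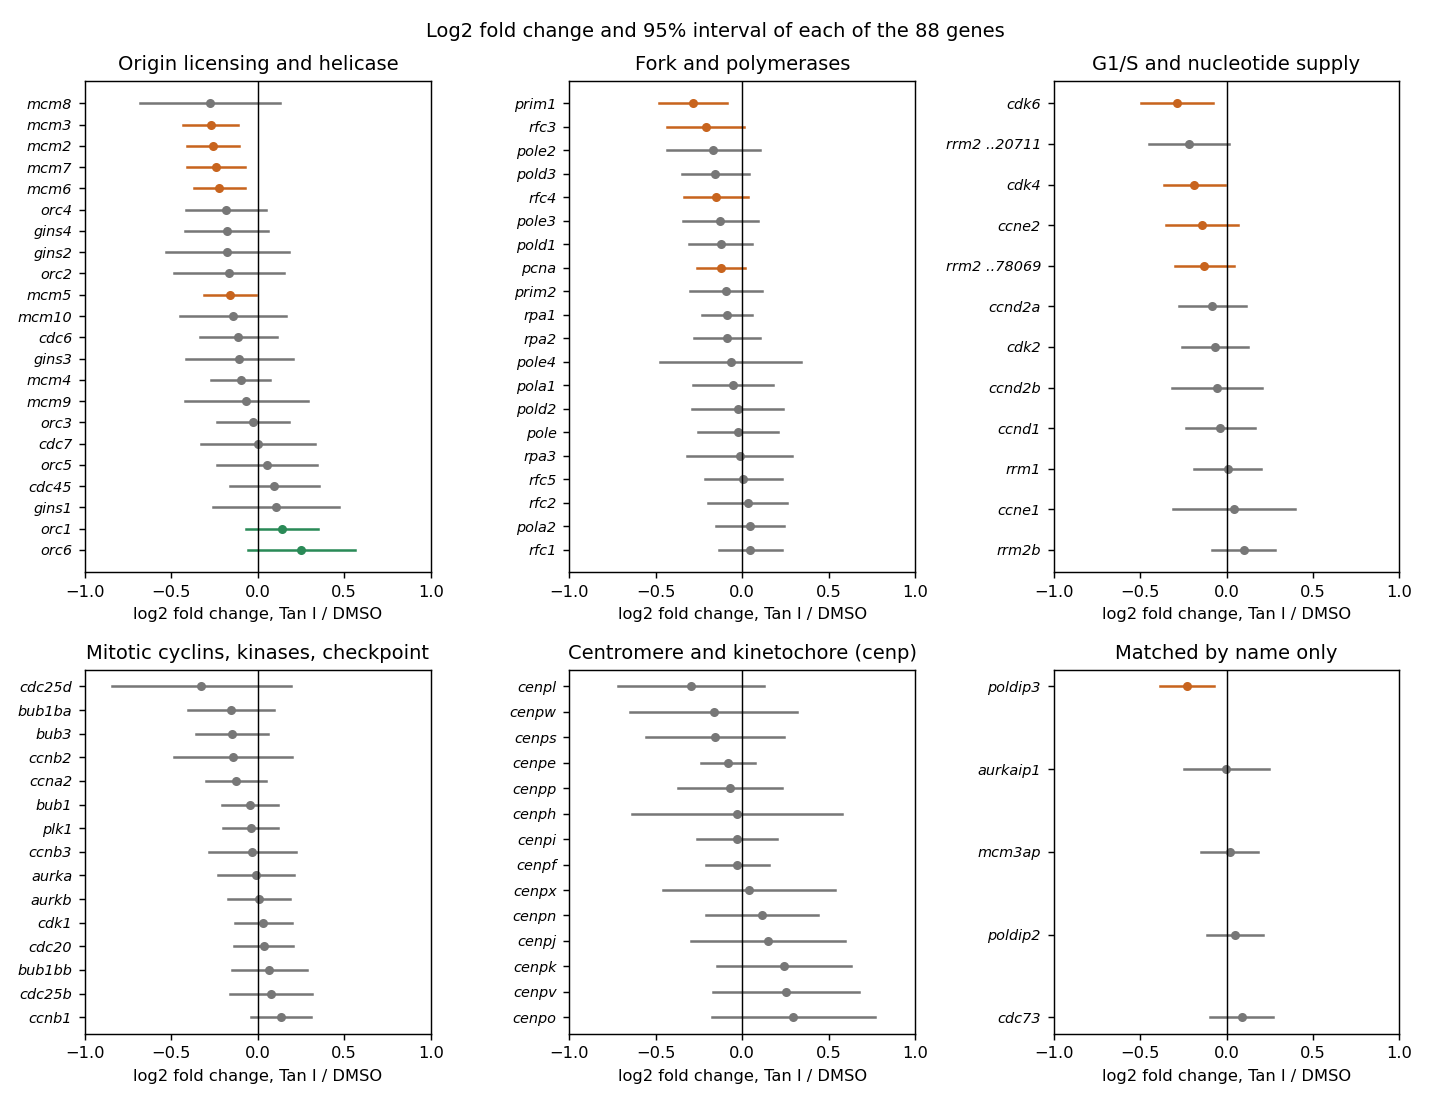
Log2 fold change of Tan I over DMSO with its 95% interval (limma, 3 libraries per group) for the 88 genes, in panels by function. Orange marks the 14 genes whose Tan I libraries all lay below the DMSO libraries, green the 2 whose Tan I libraries all lay above, and grey those that overlapped. Rows of rrm2 carry the last digits of their gene ID.

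For 5 of the 6 genes of the Mcm ring, the Tan I libraries lay below the DMSO libraries, although none of the 6 passed the test. The share of all tested genes with such a gap was 10.4%. The ring was not a group set beforehand, so its count is a description and not a test. Mcm2 to Mcm7 form the hexamer that opens the double helix ahead of the polymerases. The normalized read counts of mcm2 were 2618, 2483 and 2313 in DMSO and 2154, 2059 and 1982 in Tan I. All 3 Tan I libraries thus lay below the DMSO libraries, with a log2 fold change of -0.26 ± 0.069 (SE), a 95% interval of -0.41 to -0.11 and a limma adjusted p of 0.0767. For mcm3 the counts were 1573, 1723 and 1572 in DMSO and 1321, 1261 and 1447 in Tan I, again without overlap (log2 fold change -0.27 ± 0.074, limma adjusted p 0.0825). For mcm6 they were 1982, 2021 and 2058 in DMSO and 1689.9, 1642 and 1868 in Tan I (log2 fold change -0.22 ± 0.069, limma adjusted p 0.131). For mcm7 they were 3368, 2918 and 2735 in DMSO and 2554, 2563 and 2471 in Tan I (log2 fold change -0.24 ± 0.078, limma adjusted p 0.143). In both of these genes the Tan I libraries were also the 3 lowest of the 6.

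The gap was narrower for mcm5, at 1838, 1949 and 2073 in DMSO and 1679, 1752 and 1815 in Tan I, where the highest Tan I library came close to the lowest DMSO library (log2 fold change -0.16 ± 0.069, limma adjusted p 0.299). The exception was mcm4, at 2485, 2361 and 2144 in DMSO and 2396, 2091 and 2039 in Tan I. Its groups overlapped, since Tan I replicate 1 was higher than 2 of the DMSO libraries (log2 fold change -0.10 ± 0.080, limma adjusted p 0.599). Summed over the 6 genes, the normalized read counts were 13865, 13454 and 12895 in DMSO and 11794, 11368 and 11623 in Tan I, a ratio of means of 0.865. The median log2 fold change of the 6 was -0.23. Without them, the median of the other 40 replication genes was -0.086, in a split that was also not set beforehand. Of these 40, 5 (12.5%) had every Tan I library below DMSO and 2 (5%) had every one above. The shares of all tested genes were 10.4% and 10.7%. At an unadjusted limma p under 0.05, 1 of the 40 (2.5%) was lower, beside 6.50% of all tested genes.

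**Figure D2:**
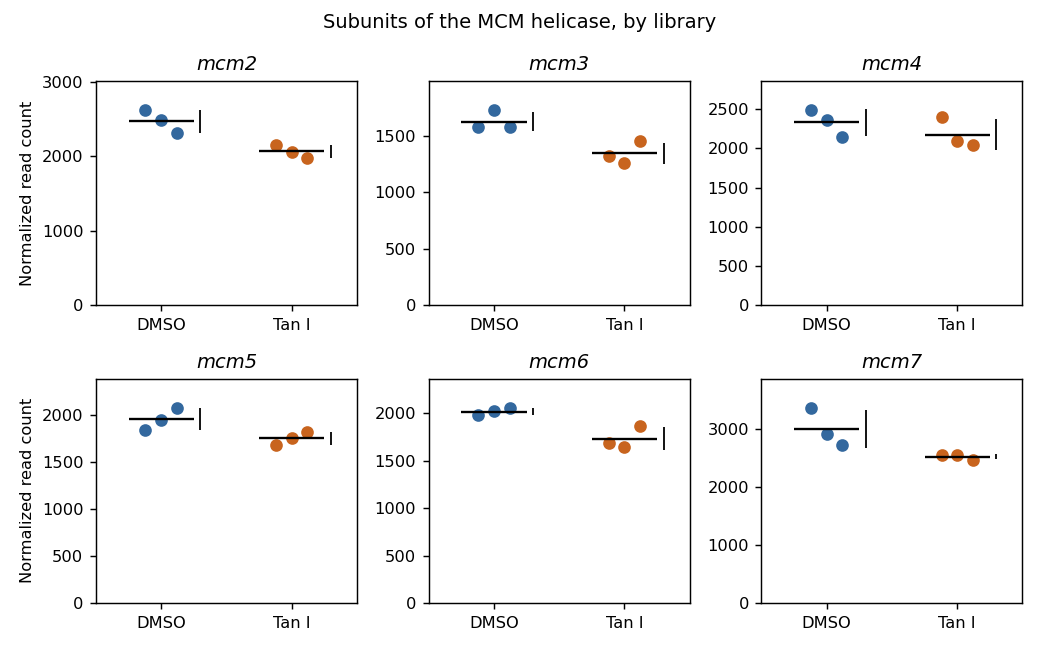
Normalized read counts of mcm2 to mcm7 in each library (points) with the group mean (horizontal line) and SD (vertical line, n = 3), on an axis that starts at 0. The Tan I libraries lie below the DMSO libraries for mcm2, mcm3, mcm5, mcm6 and mcm7 and overlap them for mcm4.

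Whether an Mcm gene was called depended on the setting. When limma gave each library a quality weight, 4 of the 88 genes were called lower, beside 4.72% of all tested genes called in either direction. They were mcm2 (adjusted p 0.0221), mcm3 (0.0153), mcm6 (0.0467) and cdk6 (0.0389). Without Tan I replicate 3, limma called 1 of the 88, mcm3, lower (log2 fold change -0.33, adjusted p 0.0367), beside 3.40% of all tested genes. Without any other single library, limma called 0 of the 88. Over the 17 other settings that had no replicate block, the limma, edgeR or DESeq2 adjusted p ranged from 0.0221 to 0.292 for mcm2, from 0.0153 to 0.369 for mcm3, from 0.0467 to 0.387 for mcm6, from 0.0743 to 0.351 for mcm7 and from 0.0389 to 0.522 for cdk6. The median log2 fold change of mcm2 to mcm7 stayed between -0.25 and -0.21 in them.

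Values of the other licensing and helicase genes were more mixed. Among these 16 genes, 10 estimates were below 0 and the median log2 fold change was -0.086. The 16 hold the factors that load and activate the ring, and also mcm8 and mcm9. ORC marks the origins, and its subunits were split, with 3 estimates below and 3 above 0. The counts of orc1 were 261, 253 and 271 in DMSO and 297, 278 and 289.9 in Tan I, so that each Tan I library lay above each DMSO library (log2 fold change 0.14 ± 0.096, limma adjusted p 0.533). Those of orc6 were 109.8, 139.6 and 149 in DMSO and 150.02, 169 and 152 in Tan I, with DMSO replicate 3 next to Tan I replicate 1 (log2 fold change 0.25 ± 0.14, limma adjusted p 0.438). Neither gene passed the test. The loader cdc6 stood at 273, 314 and 313 in DMSO and 284, 260.3 and 287 in Tan I, and its groups overlapped (log2 fold change -0.11 ± 0.10, limma adjusted p 0.653). For cdc45 and the GINS genes, which complete the helicase, 3 of 5 estimates were below 0 and the median was -0.11. The cdc45 counts were 219.6, 216 and 176 in DMSO and 222, 209.7 and 218 in Tan I, with a log2 fold change of 0.094 ± 0.12 (limma adjusted p 0.767). The gene with the lowest estimate of the 16, mcm8, which encodes a helicase known for DNA repair, was weak and overlapped (log2 fold change -0.28 ± 0.19, limma adjusted p 0.521).

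At the fork, 16 of the 20 genes had estimates below 0, and prim1 was the one with an unadjusted limma p under 0.05. Prim1 is the catalytic subunit of primase, which makes the RNA primers of each new strand. Its counts were 394, 381 and 368 in DMSO and 295, 315 and 329.5 in Tan I, without overlap (log2 fold change -0.28 ± 0.092, limma adjusted p 0.151). The clamp gene pcna had the highest mean of the 88, with 6889, 7454 and 7289.6 in DMSO and 6652, 6371 and 6834 in Tan I. The 3 Tan I libraries were the 3 lowest (log2 fold change -0.12 ± 0.064, 95% interval -0.26 to 0.015, limma adjusted p 0.388). Replication factor C loads this clamp. Its subunit genes rfc3, at 269, 265 and 294 in DMSO and 237, 225 and 253 in Tan I, and rfc4, at 492, 455 and 468 in DMSO and 417, 450.4 and 409 in Tan I, also had every Tan I library below DMSO. Their log2 fold changes were -0.21 ± 0.10 and -0.15 ± 0.085 (limma adjusted p 0.358 and 0.435). The other 3 rfc genes overlapped, with estimates above 0. The genes of the RPA complex, which coats single-stranded DNA, had estimates from -0.087 to -0.015. Those of polymerase delta ran from -0.16 to -0.025 and those of polymerase epsilon from -0.17 to -0.024, all overlapping. The gene of the catalytic subunit of polymerase alpha, pola1, stood at 969, 1004 and 825 in DMSO and 1045, 882 and 782 in Tan I (log2 fold change -0.051 ± 0.11, limma adjusted p 0.866).

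Ribonucleotide reductase makes the deoxynucleotides that S phase consumes, from a large subunit (rrm1) and a small one (rrm2 or rrm2b, the latter inducible by p53 in mammals). The 2 rows of rrm2 lay below 0. The row ENSDARG00000020711 held 913, 982 and 1150.05 in DMSO and 839, 773 and 1013 in Tan I (log2 fold change -0.22 ± 0.11, limma adjusted p 0.367), with DMSO replicates 1 and 2 inside the Tan I range. The row ENSDARG00000078069 held 794, 875 and 756 in DMSO and 727, 749.97 and 739 in Tan I, with all Tan I libraries lowest (log2 fold change -0.13 ± 0.078, limma adjusted p 0.471). Reads that mapped to more than 1 place had been removed, so counts of such paralogous rows are uncertain. The counts of rrm1 were 2986, 3025 and 2802 in DMSO and 3467, 2741 and 2708 in Tan I, where Tan I held both the highest and the lowest library (log2 fold change 0.0083 ± 0.090, limma adjusted p 0.977). Those of rrm2b were 666, 686 and 713 in DMSO and 665, 778 and 773 in Tan I (log2 fold change 0.099 ± 0.083, limma adjusted p 0.621).

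Among the 8 G1/S genes, the lowest estimates belonged to the kinases that pair with D-type cyclins. The counts of cdk6 were 410.3, 471 and 390.4 in DMSO and 355, 331 and 354 in Tan I, without overlap (log2 fold change -0.29 ± 0.097, limma adjusted p 0.170). Those of cdk4 were 623, 629 and 679.6 in DMSO and 604, 537 and 556 in Tan I, also without overlap (log2 fold change -0.19 ± 0.082, limma adjusted p 0.299). Their partner ccnd1 did not separate the groups, at 2529, 2618 and 3162 in DMSO and 2837, 2414 and 2837 in Tan I (log2 fold change -0.036 ± 0.092, limma adjusted p 0.893). For the E cyclins, ccne2 stood at 298, 305 and 330.3 in DMSO and 271, 284 and 291 in Tan I, with Tan I below DMSO in every library (log2 fold change -0.14 ± 0.096, limma adjusted p 0.525). The log2 fold change was 0.042 ± 0.16 for ccne1 and -0.065 ± 0.088 for cdk2, their kinase (limma adjusted p 0.932 and 0.784), and both overlapped.

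The mitotic genes did not separate the groups. In each of the 29 the Tan I and DMSO libraries overlapped. Their estimates were less precise than those of the replication genes. The 95% interval of the log2 fold change lay within ±0.5 for 19 of the 29, and for 5 of the 14 cenp genes. For the replication genes it did so in 43 of 46. Among all tested genes, the Tan I libraries lay wholly below DMSO in 10.4% and wholly above in 10.7%. Of the 29, 0 had an unadjusted limma p under 0.05, beside 6.50% lower and 8.77% higher among all tested genes. The median log2 fold change was -0.032 for the 15 cyclins, kinases and checkpoint genes and -0.029 for the 14 cenp genes. Cdk1 is the kinase that starts mitosis, and its counts were 833, 879 and 903 in DMSO and 949.9, 828 and 901 in Tan I (log2 fold change 0.033 ± 0.077, 95% interval -0.13 to 0.20, limma adjusted p 0.884). Its partner ccnb1 stood at 756, 743 and 839.7 in DMSO and 807, 845 and 913 in Tan I (log2 fold change 0.13 ± 0.081, limma adjusted p 0.469), the highest estimate among the 15. The cyclin of S and G2 phase, ccna2, held 898, 958 and 859.8 in DMSO and 899, 818 and 773 in Tan I (log2 fold change -0.13 ± 0.081, limma adjusted p 0.490). These intervals bound the difference without showing that the groups were alike.

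Plk1, a kinase of spindle assembly and mitotic exit, stood at 1056, 1130.5 and 1058 in DMSO and 1095, 972 and 1087 in Tan I (log2 fold change -0.042 ± 0.075, limma adjusted p 0.838). The Aurora kinases act at the spindle poles (aurka) and at the centromere (aurkb), and their log2 fold changes were -0.012 ± 0.10 and 0.0049 ± 0.083. For the checkpoint kinase bub1 the value was -0.044 ± 0.075, for bub3 -0.15 ± 0.096, and for cdc20, the activator of the anaphase-promoting complex, 0.033 ± 0.079 (limma adjusted p 0.832, 0.491 and 0.886). At the kinetochore, the motor gene cenpe had -0.083 ± 0.071 and cenpf had -0.027 ± 0.085. The widest estimates of the mitotic set came from weaker genes: cenpl at -0.30 ± 0.19, cenpo at 0.30 ± 0.22 and the phosphatase gene cdc25d at -0.33 ± 0.24 (limma adjusted p 0.508, 0.562 and 0.558). The histone variant gene cenpa was not analysed here.

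**Figure D3:**
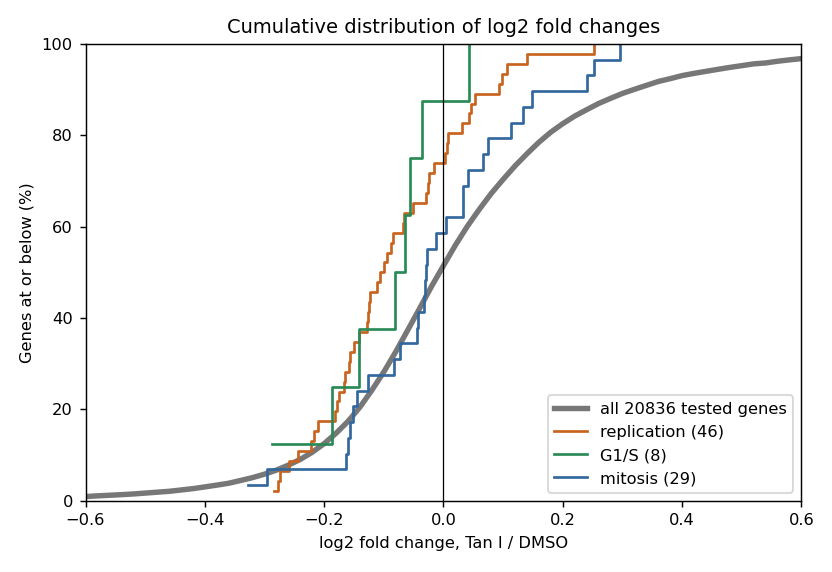
Share of genes (%) with a log2 fold change of Tan I over DMSO at or below the value on the horizontal axis, for all 20836 tested genes (grey) and for the 46 replication, 8 G1/S and 29 mitotic genes. The replication and G1/S curves lie to the left of the grey curve over most of their range, with medians of -0.10 and -0.074, and the mitotic curve has a median of -0.030.

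Among the 5 genes that matched by name only, poldip3, a partner of polymerase delta known in human cells for roles in mRNA export and translation, stood at 875, 829 and 863 in DMSO and 713, 753 and 727 in Tan I. Its Tan I libraries all lay below DMSO (log2 fold change -0.23 ± 0.072, limma adjusted p 0.139). With these 5 set aside, the median of the remaining 83 genes was -0.067, and 8 had an unadjusted limma p under 0.05.

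The libraries of Tan I did not differ from DMSO to the same degree. As the median log2 deviation from the DMSO mean, the 88 genes stood at -0.038, -0.00056 and 0.012 in DMSO replicates 1 to 3 and at -0.0093, -0.13 and -0.057 in Tan I replicates 1 to 3. Tan I replicate 1 therefore lay within the DMSO range, and Tan I replicate 2 was the lowest. For mcm2 to mcm7 the same medians were 0.029, 0.0045 and -0.069 in DMSO and -0.22, -0.24 and -0.18 in Tan I, without overlap. Since 5 of these 6 genes had every Tan I library below DMSO, this gap repeats the single genes and is no separate evidence. The medians of the mitotic genes were -0.033, 0.064 and -0.024 in DMSO and 0.015, -0.055 and 0.0073 in Tan I, and the groups overlapped.

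**Figure D4:**
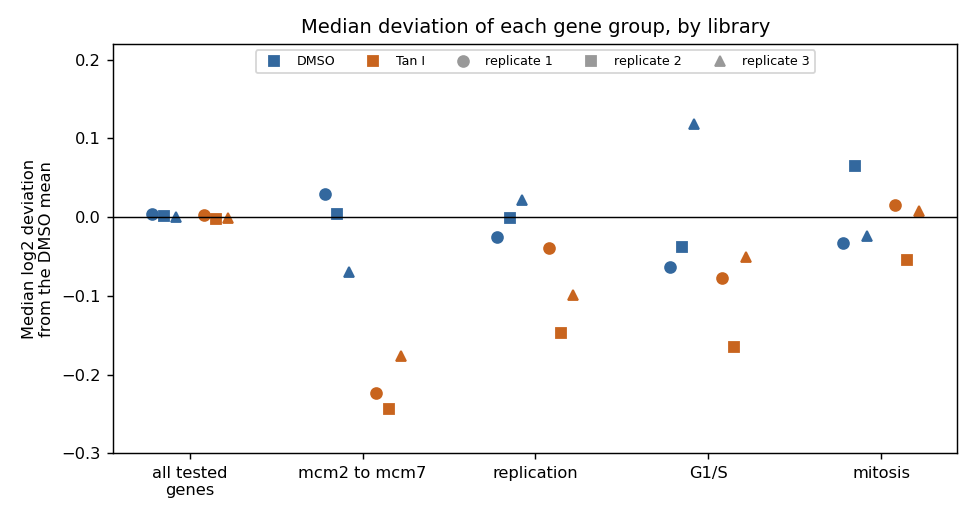
Median log2 deviation from the DMSO mean in each library, for the gene groups by function and for mcm2 to mcm7. The 3 Tan I libraries lie at -0.22, -0.24 and -0.18 for mcm2 to mcm7, whereas for the mitotic genes Tan I replicate 2 lies below the DMSO libraries at -0.055 and the other Tan I libraries lie among them.

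A wider list of cell cycle genes that the name rule did not take was measured for comparison. Of 107 symbols, 97 were tested, on 98 rows, and limma, edgeR and DESeq2 each called 0 of them. In the limma fit 60 had estimates below 0 and the median log2 fold change was -0.044. At an unadjusted limma p under 0.05, 3 were lower and 1 was higher, beside 6.50% and 8.77% of all tested genes. The lower ones were foxm1, which encodes a factor that drives mitotic genes, wdhd1, which encodes a tether of polymerase alpha, and cdkn2d, an inhibitor gene of Cdk4 and Cdk6. Their log2 fold changes were -0.25 ± 0.11, -0.22 ± 0.095 and -0.57 ± 0.21 (limma adjusted p 0.286, 0.284 and 0.201). The higher one was cdkn1ba, which encodes a p27-type inhibitor of cyclin-dependent kinases, at 712, 673 and 622 in DMSO and 808, 753 and 775 in Tan I (log2 fold change 0.22 ± 0.079, limma adjusted p 0.199). By role, the median was -0.049 for 31 genes that control entry, -0.060 for 22 genes of S phase and -0.010 for 45 genes of mitosis. Estimates lay below 0 for 18, 17 and 25 of these. Every Tan I library lay below DMSO in 1, 1 and 5 of them (3.23%, 4.55% and 11.1%), beside 10.4% of all tested genes. Every Tan I library lay above DMSO in 2, 0 and 3, beside 10.7%. In this list the S phase genes thus did not separate the groups more often than the mitotic genes.

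Markers of several tissues of the embryo were read beside these genes. Of 13 neural progenitor rows, 1 was called, gfap, higher in Tan I (log2 fold change 0.26, limma adjusted p 0.0420), beside 2.57% of all tested genes called in either direction. Estimates of the 13 lay below 0 for 6 and above 0 for 7, with a median log2 fold change of 0.021. The summed level of the list ran from 24098 to 25183 in DMSO and from 24261 to 26847 in Tan I. In it, fabp7a and gfap had the highest means (8429 and 7576). Of 8 blood stem and progenitor genes, 0 were called by limma, edgeR or DESeq2 and 0 had an unadjusted limma p under 0.05. Their sums were 6685 to 7212 in DMSO and 7136 to 7248 in Tan I. These sums came mainly from meis1b and myb, with means of 4696 and 1629, while the mean of runx1 was 68.4. The sums of 6 myeloid genes were 1985 to 2069 in DMSO and 2120 to 2491 in Tan I, without overlap. The highest mean of the 6 was that of cebpa (860). Taken singly, 1 of the 6, mpx, had every Tan I library above DMSO, beside 10.7% of all tested genes. Estimates lay above 0 for 5 and below 0 for 1, mpeg1.1 (log2 fold change -0.15). Limma and edgeR called 0 of the 6 and DESeq2 called 1, mpx (DESeq2 adjusted p 0.0369), so this call depended on the test. The count of all genes that DESeq2 called lay in the range given for the other settings below. At an unadjusted limma p under 0.05, 2 of the 6 were higher, beside 8.77% of all tested genes. They were mpx and lyz (log2 fold change 0.40 and 0.43, limma adjusted p 0.103 and 0.290), and the groups of lyz overlapped. By in situ hybridization, another measure, the paper reported lower c-myb and lyz in this line under Tan I. Here the log2 fold change of myb was 0.028 (limma adjusted p 0.893), and its groups overlapped. The reason for these differences was not tested. In the retinal stem zone list of 4 genes, rx2 had all Tan I libraries below DMSO (log2 fold change -0.46 ± 0.15, limma adjusted p 0.156), and the sums were 4973 to 5714 and 4817 to 5264. This list also holds ccnd1, one of the 88, and without it the sums were 2444 to 2551 and 2259.7 to 2427, without overlap. These sums came mainly from fabp11a and col15a1b, with means of 1186 and 1119, while the mean of rx2 was 134. Taken singly, fabp11a and col15a1b overlapped (limma adjusted p 0.618 and 0.850). The 5 epidermal genes summed to 131859 to 186452 in DMSO and 112791 to 153305 in Tan I. Of these, krt4 and cyt1 were lower at an unadjusted limma p under 0.05 (log2 fold change -0.47 and -0.34, limma adjusted p 0.123 and 0.164), beside 6.50% of all tested genes. Estimates lay below 0 for 4 of the 5 and above 0 for tp63 (log2 fold change 0.016, limma adjusted p 0.973). The 6 neuronal genes summed to 27746 to 30394 and 26120 to 29301, and all 6 estimates were below 0. Among them snap25b was lower at an unadjusted limma p under 0.05 (log2 fold change -0.16, limma adjusted p 0.272), beside 6.50% of all tested genes. In 2 of the 6, snap25b and gap43, every Tan I library lay below DMSO, beside 10.4% of all tested genes. Limma, edgeR and DESeq2 each called 0 epidermal and 0 neuronal genes. They also called 0 of 5 erythroid, 4 lymphoid, 4 skeletal muscle and 3 germ cell genes. At an unadjusted limma p under 0.05, alas2 was lower among the erythroid genes (log2 fold change -0.24), beside 6.50% of all tested genes. The erythroid slc4a1a (0.32) and the lymphoid ccr9a (0.90) were higher, beside 8.77% (limma adjusted p of the 3 genes 0.249, 0.263 and 0.184). None of the markers tested was at 0 in any library, and the part of these tissues in the values of the replication genes was not tested. With the reads of every library thinned to the smallest total, the median log2 fold change was -0.21 for mcm2 to mcm7 and -0.088 for the replication genes.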

How the data were processed

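RNA of 3 DMSO and 3 Tan I libraries was compared, with groups taken from the sample titles. The authors aligned paired-end reads to GRCz11 with STAR, removed reads mapped to more than 1 place, counted per gene with featureCounts and ran DESeq2, per the labels and the study's methods. Tool versions and the strand setting were not given in the sources used here. The deposited signal values are read counts after scaling by the authors with a size factor for each library. The deposited table also holds the authors' fold changes, errors, test scores and p-values, which were not used. Dividing each library's values by that of 1 read gave whole reads for 100% of values (tolerance 0.01).

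In R 4.3.3, limma 3.58.1 (lmFit, eBayes with trend, two-sided, no covariate) was fitted to log2(value + 1), which understates changes of weak genes. Of all rows, 20836 reached a mean of 10 and were fitted, and 481 were left out. Benjamini-Hochberg adjustment covered all of these. Alternatives were edgeR 4.0.16 and DESeq2 1.42.0 on recovered reads, other pseudocounts, filters and scalings, no trend, quality weights, thinned reads, a replicate block and leaving out each library. The fits were tested on simulated data. The members and lists were chosen with earlier results of these data known. Named genes were a set list, in each functional group the 4 genes of lowest p per direction, and exceptions to a count.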

Additional observations from a re-analysis of the deposited data

How the results depend on the processing

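The count of genes called in the whole table, 536, was 165 without the mean-variance trend, 984 with quality weights, 1093 with the replicate number as a block, and 213 to 709 when 1 library was left out (the lowest without DMSO replicate 2, the highest without Tan I replicate 3). In the other settings it lay between 429 and 653. Of the 88 genes, 4 were called lower with quality weights, 4 with the replicate block and 0 to 1 when a library was left out. The 4 with the block were mcm2, mcm3, mcm6 and mcm7 (limma adjusted p 0.0136, 0.0309, 0.0427 and 0.0311). They were 4.55% of the 88, beside 5.25% of all tested genes called in either direction. None was called higher in any setting. Deviations of same-numbered libraries had correlations over genes of 0.081, -0.029 and 0.21 for numbers 1 to 3. Tan I replicates 1 and 3 correlated best with their own number and Tan I replicate 2 with DMSO replicate 1 (0.10). The labels name no shared origin for a number, so the libraries were not treated as paired. With 3 libraries per group, these correlations cannot decide whether they were. The estimate lay below 0 in every setting for 42 of the 88 genes, 27 of them in replication, above 0 for 10, and took both signs for 36. In each of the latter that is named, no call was made and the cause was not tested. All settings reuse the same libraries, so a constant sign is no separate evidence. The share of all tested genes with a constant sign was not counted. With TMM scaling aurkaip1 was at 0.0062. With quality weights cdk1 was at -0.0061, mcm3ap at -0.014, cdc20 at -0.0060, rrm1 at -0.052 and ccne1 at -0.0066. With reads thinned to the smallest library mcm3ap was at -0.0046, ccne1 at -0.081, aurkaip1 at 0.037 and aurkb at -0.0072. Leaving out 1 library gave log2 fold changes of -0.085 to 0.033 for aurka, -0.11 to 0.11 for aurkaip1, -0.038 to 0.075 for aurkb, -0.074 to 0.0023 for bub1, -0.098 to 0.063 for ccnd1, -0.024 to 0.14 for ccne1, -0.020 to 0.075 for cdc20, -0.0090 to 0.15 for cdc45, -0.013 to 0.086 for cdk1, -0.077 to 0.049 for cenpf, -0.015 to 0.066 for mcm3ap, -0.073 to 0.013 for plk1, -0.16 to 0.047 for pola1, -0.00067 to 0.073 for poldip2 and -0.11 to 0.071 for rrm1. The depth of the recovered reads, at least 15874701 per library, covers the rows of the table only, and cdc25d and the weaker cenp genes had the widest intervals.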
